A study of Mus musculus with 6 samples.

Results

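The genes described here are mouse solute carriers of 13 families that move inorganic ions, phosphate and metals: SLC4, SLC8, SLC9, SLC11, SLC12, SLC20, SLC24, SLC26, SLC30, SLC34, SLC39, SLC40 and SLC41. They were taken by gene symbol from the protein-coding genes of the count table. Only symbols with the letter a or b after the family number were taken, so genes of these families with another letter are left out. The rule gave 88 genes of the 55487 in the table. The symbols bring in 3 genes that are not carriers: Slc4a1ap, which encodes kanadaptin, and Slc9a3r1 and Slc9a3r2, which encode the NHERF scaffold proteins of the apical membrane. The RNA came from KP mouse lung tumours, sorted for cells with GFP and without CD45 11 weeks after tumours were started, and was sequenced in bulk. In the sgLkb1 group (3 libraries) the tumours are labelled Lkb1 mutant. In the sgNeo group (3 libraries) they are labelled Lkb1 wild type. Both groups carry the KP background of the tumour model. The strain, sex and age of the mice, the means of starting the tumours and the number of mice behind a library are not stated in the labels. Since the labels do not say that the 3 libraries of a genotype come from separate mice, p-values measure only the spread between these libraries, which may be technical.

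A cell's ion carriers work as a circuit. Sodium-driven carriers use the gradient kept by the sodium pump to bring in phosphate, bicarbonate or chloride and to push out protons or calcium, and chloride-bicarbonate exchangers couple salt movement to pH. ZIP proteins (SLC39) bring zinc, manganese and iron into the cytosol, ZnT proteins (SLC30) take zinc out of it, and ferroportin (SLC40) is the exporter of iron. In the lung, the alveolar type 2 cell, which makes surfactant, takes up phosphate through the sodium-phosphate cotransporter NaPi-IIb, encoded by Slc34a2. Loss of that gene in humans causes pulmonary alveolar microlithiasis, in which calcium phosphate stones form in the airspaces.

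Total counts ran between 29613678 and 41729299 in the sgLkb1 libraries and between 26007503 and 28986526 in the sgNeo libraries. Stk11, the gene that encodes Lkb1, had 23.5, 25.6 and 25.3 CPM (counts scaled to library size) in sgLkb1 tumours, against 68.3, 33.4 and 82.7 CPM in sgNeo tumours, and its log2 fold change was -1.31 with an SE of 0.30 (edgeR adjusted p = 0.023). That call held without sgNeo replicate 2 and was lost in the other 5 fits without 1 library, with an adjusted p of up to 0.076. The 10 most abundant genes took 6.68 to 8.66% of counts in sgLkb1 libraries and 17.5 to 22.1% in sgNeo libraries. In bulk RNA, fewer cells of a type and less RNA per cell cannot be told apart, and this holds for every gene below.

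Of the 88 genes, 64 passed the filter on low counts and were tested. Of these, 3 rose and 9 fell in sgLkb1 tumours at an adjusted p of 0.05. The 12 that changed are 18.8% of the 64, against 15.7% of all 15978 genes tested, of which 7.05% were called higher and 8.6% lower. The share called is therefore near that of genes in general. The count changed when 1 library was left out: 6, 5 and 7 of the genes passed without sgNeo replicate 1, 2 and 3. The number that rose was 6, 0 and 2 without sgLkb1 replicate 1, 2 and 3 and 0 without each sgNeo library. Over all genes tested, the 2501 calls became 1325, 1129 and 1587 without sgNeo replicate 1, 2 and 3. A drop without each sgNeo library was therefore not particular to the set. Slc34a2, Slc39a8, Slc26a9, Slc24a4 and Slc9a3r2 passed in all of these fits. Over the 64 genes the median log2 fold change was -0.09, against 0.02 over all genes tested, and the median absolute log2 fold change was 0.52, against 0.42. The libraries of the 2 genotypes did not overlap for 28 of the 64, of which 11 lay above and 17 below in sgLkb1 tumours. Over all genes tested the groups did not overlap in 36.5%.

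What fell included the most abundant carrier of the set. Slc34a2 had 1370.0, 734.8 and 1098.9 CPM in sgLkb1 tumours, against 6403.4, 5677.1 and 5694.8 CPM in sgNeo tumours. The other carriers with more than 100 CPM in every sgNeo library and a fall past the threshold were Slc39a8, Slc26a9 and Slc26a4, together with the scaffold gene Slc9a3r2. The genes that rose, Slc4a4, Slc4a7 and Slc9a2, encode membrane proteins that move bicarbonate or protons against or along with sodium. All 12 were separated between the genotypes in every library, as the plot of CPM in each library shows.

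**Figure D1:**
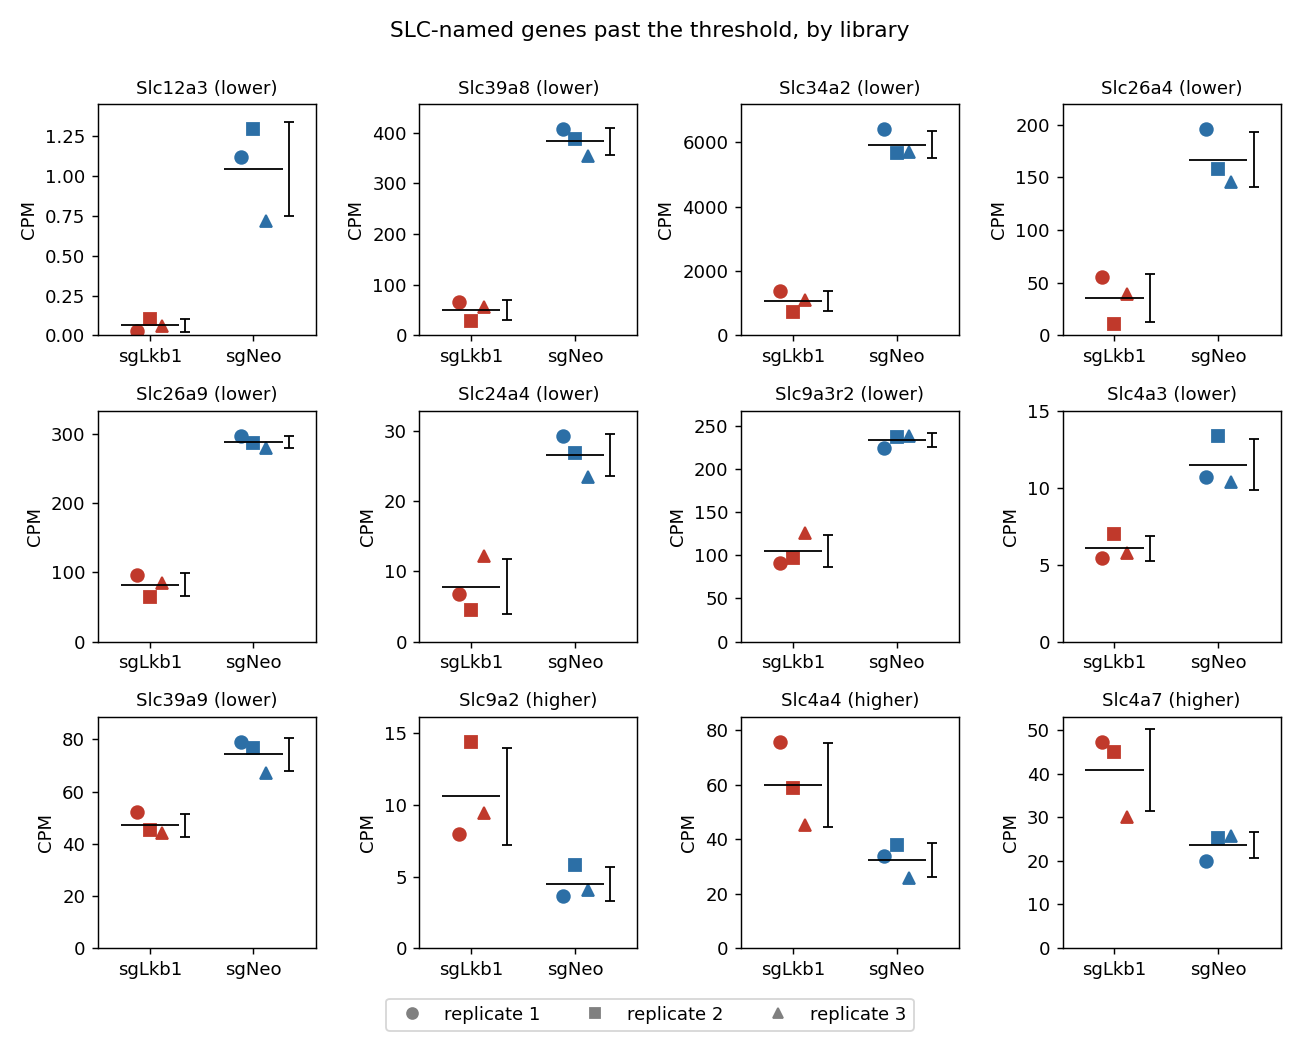
CPM in each library of the 12 genes past the threshold of the edgeR test, 1 panel a gene with its own axis from 0, sgLkb1 libraries in red on the left and sgNeo libraries in blue on the right. The horizontal line is the mean and the bar beside it ± 1 SD (n = 3), and in each panel the points of the genotypes do not overlap.

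The sequences around the starts of 5 of these genes are given so that the elements at each start can be read beside the changes in level: the 4 carriers with the highest level per length in sgNeo tumours among those that fell, and Slc4a4, which had the highest level per length among those that rose. Each is a RefSeq promoter of GRCm38.p6, from 250 bases before the start to 50 bases after it, written 5′ to 3′ on the gene's own strand. Capitals mark matches, on either strand, to any of 10 short motifs: the core promoter box TATAAA, the CCAAT box, GGGCGG as bound by SP1, the E-box CACGTG, the AP-1 site TGACTCA, the cyclic AMP response element TGACGTCA and its shorter core TGACG, which overlaps it, the core CAAGTG of NKX2 factors, and the metal response element of the zinc sensor MTF1, written as TGCACNC in one form and as TGCGCNC in the other. The Slc34a2 promoter lies at chr5:53049103-53049402 on the plus strand, and its start is 11272 bases inside the gene's GENCODE span. The Slc39a8 promoter, the first of 2, lies at chr3:135825029-135825328 on the plus strand. The Slc26a9 promoter lies at chr1:131743772-131744071 on the plus strand. The Slc26a4 promoter lies at chr12:31559935-31560234 on the minus strand. The Slc4a4 promoter, the first of 2, lies at chr5:88887010-88887309 on the plus strand.
Slc34a2: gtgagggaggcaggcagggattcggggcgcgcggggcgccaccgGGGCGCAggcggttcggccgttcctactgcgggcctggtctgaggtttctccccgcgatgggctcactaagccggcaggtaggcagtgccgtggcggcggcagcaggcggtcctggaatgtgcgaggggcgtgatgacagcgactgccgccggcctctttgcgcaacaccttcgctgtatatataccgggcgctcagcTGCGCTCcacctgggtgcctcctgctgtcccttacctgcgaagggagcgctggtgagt
Slc39a8: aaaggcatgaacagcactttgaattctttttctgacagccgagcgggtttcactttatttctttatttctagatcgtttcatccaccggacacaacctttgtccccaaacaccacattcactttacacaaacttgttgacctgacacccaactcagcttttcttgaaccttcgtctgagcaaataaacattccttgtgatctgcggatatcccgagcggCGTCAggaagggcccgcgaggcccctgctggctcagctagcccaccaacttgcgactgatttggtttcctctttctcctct
Slc26a9: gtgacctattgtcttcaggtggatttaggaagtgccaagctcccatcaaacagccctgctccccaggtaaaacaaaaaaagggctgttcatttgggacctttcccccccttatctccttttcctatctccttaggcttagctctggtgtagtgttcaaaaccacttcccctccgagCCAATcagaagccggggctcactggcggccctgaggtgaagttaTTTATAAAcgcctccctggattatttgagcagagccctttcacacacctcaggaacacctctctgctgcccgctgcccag
Slc26a4: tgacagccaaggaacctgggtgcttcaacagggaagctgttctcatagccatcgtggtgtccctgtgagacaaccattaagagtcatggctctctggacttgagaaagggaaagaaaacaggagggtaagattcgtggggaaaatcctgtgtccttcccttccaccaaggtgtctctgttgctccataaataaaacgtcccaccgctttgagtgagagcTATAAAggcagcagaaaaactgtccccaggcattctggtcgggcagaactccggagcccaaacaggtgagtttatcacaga
Slc4a4: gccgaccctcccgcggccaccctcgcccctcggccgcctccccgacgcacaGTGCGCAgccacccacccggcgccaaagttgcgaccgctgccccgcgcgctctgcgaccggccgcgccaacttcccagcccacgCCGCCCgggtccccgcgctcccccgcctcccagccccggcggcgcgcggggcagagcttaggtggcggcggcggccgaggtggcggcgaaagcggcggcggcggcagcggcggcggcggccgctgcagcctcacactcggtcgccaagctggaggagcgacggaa

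Slc34a2 holds 2 matches to the metal response element and no match to TATAAA. Slc26a4 holds 1 TATAAA and no other match, and Slc26a9 holds 2 overlapping TATAAA matches and 1 CCAAT. Slc39a8 holds 1 TGACG at its first start, and Slc4a4 holds 1 GC box and 1 metal response element in a stretch with 80% G and C. TATAAA was also found at Slc12a3 and Slc4a7, and it occurs in 17.6% of the 85 promoters matched to 68 of the 88 genes, against 13.6% of the 32851 promoters in the table. The table has no Slc9a2 entry. The letters TGCGCNC occur in 23.5% of the set's promoters and in 15.4% of all promoters, and GGGCGG occurs in 50.6% against 35.7%. CAAGTG occurs in 12.9% of the set's promoters and 13.6% of all. The ratio of observed to expected CpG had a median of 0.587 over the set's promoters, against 0.384 over all promoters. These matches are a description of the letters and no test was made on them.

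Phosphate carriers. The set holds 5 genes for sodium-phosphate cotransporters. Slc34a2 (chr5:53038081-53071664, plus strand) averaged 1067.9 ± 318.7 CPM in sgLkb1 tumours and 5925.1 ± 414.3 CPM in sgNeo tumours (SD, n = 3 each). The highest sgLkb1 library had less than the lowest sgNeo library, and the log2 fold change was -2.47 with an SE of 0.27 (edgeR adjusted p = 0.0011). By itself Slc34a2 made up 32.6, 20.4 and 28.6% of the summed CPM of all 88 genes in sgLkb1 libraries, against 63.9, 61.5 and 61.8% in sgNeo libraries. The summed CPM of all 88 was 4205.9, 3611.7 and 3845.8 in sgLkb1 libraries, against 10025.0, 9236.9 and 9215.7 in sgNeo libraries. Without Slc34a2 the sums were 2835.9, 2876.8 and 2746.8 in sgLkb1 libraries, against 3621.6, 3559.8 and 3520.9 in sgNeo libraries. The sums were thus lower in every sgLkb1 library both with and without that gene. Without Slc34a2 they still hold Slc39a8, Slc26a9, Slc26a4 and Slc9a3r2, which fell too. They therefore do not show a fall across the other genes. The other tested phosphate carriers, Slc20a1 and Slc20a2, encode the PiT cotransporters found in most cells, and neither passed. Slc20a1 had 29.0, 43.0 and 29.8 CPM in sgLkb1 tumours, against 21.5, 19.6 and 23.8 CPM in sgNeo tumours (edgeR adjusted p = 0.063, log2 fold change 0.65, SE 0.20). Its groups did not overlap, and it was called under RLE scaling, without the filter on low counts, in DESeq2 and without sgLkb1 replicate 1. Its exons overlap those of 9830144P21Rik and Gm4430 on the opposite strand over 732 bases. Slc20a2 averaged 38.8 ± 9.26 CPM in sgLkb1 tumours and 40.2 ± 4.87 CPM in sgNeo tumours (SD, n = 3 each, edgeR adjusted p = 0.90). Its exons overlap those of Smim19 on the opposite strand over 95 bases. Slc34a1 and Slc34a3, which encode the kidney cotransporters, were not tested for want of counts.

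ZIP importers of zinc and other metals. Of the 14 SLC39 genes, 12 were tested and 2 fell. Slc39a8 encodes ZIP8, which carries zinc and manganese. It had 65.3, 27.3 and 55.3 CPM in sgLkb1 tumours, against 406.7, 386.9 and 353.6 CPM in sgNeo tumours. Its groups lay far apart, with a log2 fold change of -2.95 and an SE of 0.31 (edgeR adjusted p = 0.0011). Slc39a9 encodes ZIP9, a zinc carrier of the Golgi and plasma membrane. It had 52.0, 45.1 and 43.9 CPM in sgLkb1 tumours, against 79.0, 76.6 and 67.2 CPM in sgNeo tumours (edgeR adjusted p = 0.020, log2 fold change -0.66, SE 0.15). Its exons overlap those of Erh on the opposite strand over 459 bases, and reads from the overlap cannot be told apart without the strand setting. The call did not hold without sgLkb1 replicate 2 or 3 or without sgNeo replicate 1 or 2, with an adjusted p of up to 0.093. Slc39a4, the ZIP gene with the highest level per kilobase of exon in both genotypes, encodes the zinc importer whose loss in humans causes acrodermatitis enteropathica. It had 357.3, 504.6 and 453.0 CPM in sgLkb1 tumours, against 326.5, 270.5 and 356.8 CPM in sgNeo tumours. The groups lay apart by less than 1 CPM between the lowest sgLkb1 and the highest sgNeo library, and the test was not passed (edgeR adjusted p = 0.15, log2 fold change 0.46, SE 0.19). Without sgLkb1 replicate 1 it passed, with an adjusted p of 0.045. Slc39a14 had 12.5, 24.9 and 16.7 CPM in sgLkb1 tumours, against 10.5, 10.9 and 10.1 CPM in sgNeo tumours. It did not pass (edgeR adjusted p = 0.089, log2 fold change 0.78, SE 0.27). It was called in DESeq2, without the filter on low counts and without sgLkb1 replicate 1. Slc39a6 and Slc39a10 also lay higher in every sgLkb1 library and did not pass (edgeR adjusted p = 0.079 and 0.17). The summed CPM of the SLC39 genes was 833.6, 988.1 and 951.5 in sgLkb1 libraries, against 1203, 1103 and 1194 in sgNeo libraries. That sum includes Slc39a8, so it does not describe the other genes of the family. Of the 12 tested, 6 had a positive log2 fold change, and the median was 0.03.

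ZnT carriers, which take zinc out of the cytosol. Of the 10 SLC30 genes, 7 were tested and 0 passed in either direction, with log2 fold changes between -0.81 and 1.18 and a median of 0.04. At an unadjusted p under 0.05 there was 1 of the 7, and DESeq2 called 1; both were Slc30a1. Slc30a1 encodes ZnT1, the zinc exporter of the plasma membrane. It had 19.5, 11.7 and 12.2 CPM in sgLkb1 tumours, against 8.34, 7.05 and 3.74 CPM in sgNeo tumours. Every sgLkb1 library lay above every sgNeo library, but the spread left it short of the threshold (edgeR adjusted p = 0.059, log2 fold change 1.18, SE 0.35). DESeq2 gave it an adjusted p of 0.0064. An antisense gene overlaps its exons. Slc30a5 encodes ZnT5, which loads zinc into the secretory pathway, and it averaged 84.5 ± 15.2 CPM in sgLkb1 tumours and 85.2 ± 5.06 CPM in sgNeo tumours (SD, n = 3 each, edgeR adjusted p = 0.97). Summed over the family, CPM was 414.5, 334.3 and 307.0 in sgLkb1 libraries, against 316.5, 310.6 and 312.3 in sgNeo libraries, and those ranges overlap.

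SLC26 anion exchangers. Of 11 genes, 6 were tested and 2 fell. Slc26a9 encodes a chloride transporter of the airway and stomach surface. It had 96.8, 64.3 and 84.8 CPM in sgLkb1 tumours, against 297.3, 286.3 and 279.5 CPM in sgNeo tumours. The sgNeo libraries were close together and far above the others, and the log2 fold change was -1.81 with an SE of 0.18 (edgeR adjusted p = 0.00096). Slc26a4 encodes pendrin, a chloride exchanger for iodide and bicarbonate known from the thyroid, inner ear and airway. It had 55.4, 10.6 and 39.4 CPM in sgLkb1 tumours, against 195.7, 158.2 and 145.6 CPM in sgNeo tumours. The groups did not overlap, while the sgLkb1 libraries differed widely among themselves (edgeR adjusted p = 0.021, log2 fold change -2.24, SE 0.51). Its call was lost without sgLkb1 replicate 3 and without each sgNeo library, with an adjusted p of up to 0.065. The summed CPM of the family was 354.5, 232.3 and 281.2 in sgLkb1 libraries, against 605.4, 580.3 and 562.8 in sgNeo libraries. That sum includes Slc26a9 and Slc26a4, so it does not describe the other genes. Slc26a2 had 187.7, 144.4 and 137.1 CPM in sgLkb1 tumours, against 87.5, 120.3 and 119.7 CPM in sgNeo tumours. It did not pass (edgeR adjusted p = 0.11, log2 fold change 0.52, SE 0.19). Among the 6 tested genes, it was the only 1 with a positive log2 fold change.

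**Figure D2:**
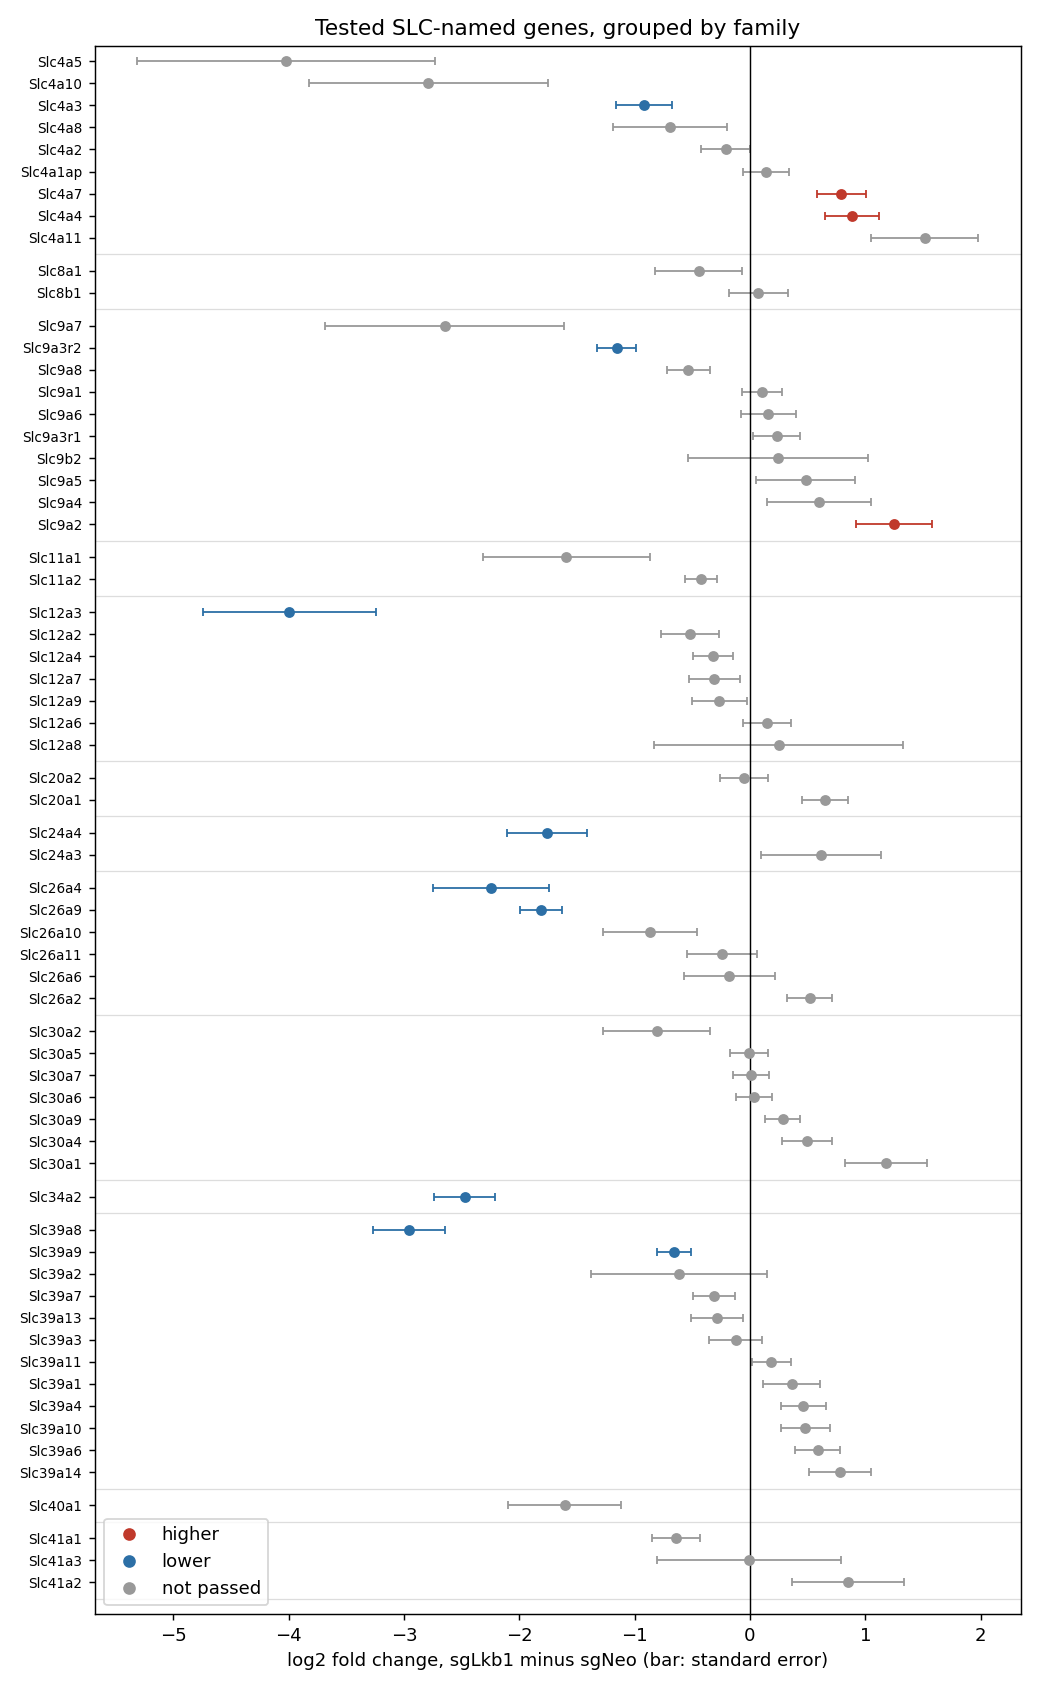
Log2 fold change (sgLkb1 minus sgNeo) from edgeR with its standard error for the 64 tested genes, grouped by SLC family, with genes past the threshold coloured by direction. The SLC30 genes all lie between -0.81 and 1.18 with none past the threshold, and the 9 genes that fell come from 7 families.

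SLC4 carriers of bicarbonate and borate. The family has 10 carrier genes besides Slc4a1ap, of which 8 were tested, 2 rose and 1 fell. Slc4a4 encodes NBCe1, which moves sodium together with bicarbonate. It had 75.7, 58.8 and 45.1 CPM in sgLkb1 tumours, against 33.7, 38.0 and 25.7 CPM in sgNeo tumours (edgeR adjusted p = 0.037, log2 fold change 0.88, SE 0.23). Slc4a7 encodes NBCn1, an electroneutral sodium-bicarbonate importer. It had 47.2, 45.0 and 30.1 CPM in sgLkb1 tumours, against 20.1, 25.2 and 25.6 CPM in sgNeo tumours (edgeR adjusted p = 0.040, log2 fold change 0.79, SE 0.21). Both genes were lowest, among sgLkb1 libraries, in replicate 3, where the gap to the sgNeo libraries was small. Each call held without sgLkb1 replicate 3 and was lost without any other library, with adjusted p of up to 0.12 for Slc4a4 and 0.15 for Slc4a7. Slc4a3 encodes AE3, a chloride-bicarbonate exchanger best known from heart and brain. It had 5.46, 6.98 and 5.80 CPM in sgLkb1 tumours, against 10.7, 13.4 and 10.4 CPM in sgNeo tumours (edgeR adjusted p = 0.037, log2 fold change -0.92, SE 0.24). That call was lost in each of the 6 fits without 1 library and without the filter on low counts.

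A pair of SLC4 genes with a mean of at least 1 CPM in a genotype had large differences that missed the threshold. Slc4a10, with a mean below 1 CPM in each genotype, missed it too (edgeR adjusted p = 0.11, log2 fold change -2.79, SE 1.03). Slc4a5 encodes NBCe2, a sodium-bicarbonate cotransporter. It had 0.0245, 0 and 1.43 CPM in sgLkb1 tumours, against 9.95, 6.76 and 6.73 CPM in sgNeo tumours. In counts these are 1, 0 and 50 in sgLkb1 libraries, against 248, 167 and 169 in sgNeo libraries, so nearly all sgLkb1 reads came from replicate 3. The edgeR adjusted p was 0.073 with all libraries and 0.0018 without sgLkb1 replicate 3. A total of 3 counts, taken as the lowest detectable, stands for 0.0734 to 0.0861 CPM in an sgLkb1 library and 0.119 to 0.121 CPM in an sgNeo library. Slc4a11 encodes a carrier once described for borate and known from the corneal endothelium. It had 41.4, 155.1 and 95.5 CPM in sgLkb1 tumours, against 19.9, 41.4 and 41 CPM in sgNeo tumours. The groups overlap narrowly at the lowest sgLkb1 library (edgeR adjusted p = 0.064, log2 fold change 1.51, SE 0.47), and the value without sgLkb1 replicate 1 was 1.88 with an adjusted p of 0.011. DESeq2 gave it an adjusted p of 0.00098. Slc4a2, with the highest mean CPM of the family over all 6 libraries but a lower level per kilobase of exon than Slc4a11 in sgLkb1 tumours, encodes the exchanger AE2 and averaged 74.5 ± 19.5 CPM in sgLkb1 tumours and 86.3 ± 10.2 CPM in sgNeo tumours (SD, n = 3 each, edgeR adjusted p = 0.54). Its exons overlap those of Fastk on the opposite strand. Slc4a1, which encodes band 3 of the red cell, was among the genes not tested.

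SLC9 sodium-proton exchangers and their scaffolds. Of the 11 exchanger genes in the set, 8 were tested and 1 rose. Slc9a2 encodes NHE2, an exchanger of the apical membrane of epithelia. It had 7.98, 14.4 and 9.44 CPM in sgLkb1 tumours, against 3.61, 5.79 and 4.02 CPM in sgNeo tumours. Every sgLkb1 library lay above every sgNeo library (edgeR adjusted p = 0.038, log2 fold change 1.24, SE 0.33), and the call held without sgLkb1 replicate 1 but was lost without any other library, with an adjusted p of up to 0.13. Slc9a7, which encodes an exchanger of the Golgi, had 0.318, 0 and 0.373 CPM in sgLkb1 tumours, against 2.13, 1.58 and 0.677 CPM in sgNeo tumours (edgeR adjusted p = 0.13, log2 fold change -2.65, SE 1.04). Its groups did not overlap, and it passed in DESeq2 (adjusted p = 0.040) and without the filter on low counts (edgeR adjusted p = 0.0498). The scaffold gene Slc9a3r2 encodes NHERF2, which tethers apical carriers to the cytoskeleton. It had 91.4, 96.8 and 125.7 CPM in sgLkb1 tumours, against 223.7, 236.5 and 238.5 CPM in sgNeo tumours. The libraries of each genotype lay close together, and the log2 fold change was -1.15 with an SE of 0.17 (edgeR adjusted p = 0.0039).

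SLC12 cation-chloride cotransporters. Of 9 genes, 7 were tested and 1 fell. Slc12a3 encodes NCC, the thiazide-sensitive sodium-chloride cotransporter of the kidney. It had counts of 1, 4 and 2 in sgLkb1 libraries, against 28, 32 and 18 in sgNeo libraries, which gave means of 0.0623 ± 0.0405 CPM in sgLkb1 tumours and 1.05 ± 0.297 CPM in sgNeo tumours (SD, n = 3 each). The fall passed the test (edgeR adjusted p = 0.011, log2 fold change -3.99, SE 0.75). Its size is uncertain, because the sgLkb1 libraries lie at the level of a few reads, and without sgNeo replicate 2 the adjusted p was 0.061. Slc12a2 encodes NKCC1, the sodium-potassium-chloride importer of secreting epithelia, and it was the most abundant of the group. It had 369.9, 274.8 and 199.2 CPM in sgLkb1 tumours, against 463.4, 426.2 and 320.1 CPM in sgNeo tumours. The groups overlap and the test was not passed (edgeR adjusted p = 0.21, log2 fold change -0.52, SE 0.25), though without sgLkb1 replicate 1 the adjusted p was 0.047.

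Sodium-calcium exchangers of SLC8 and SLC24. Of 9 genes, 4 were tested and 1 fell. Slc24a4 encodes NCKX4, which exports calcium in exchange for sodium with potassium and is known from enamel and the olfactory epithelium. It had 6.83, 4.54 and 12.1 CPM in sgLkb1 tumours, against 29.3, 26.8 and 23.4 CPM in sgNeo tumours. The groups were well apart (edgeR adjusted p = 0.012, log2 fold change -1.76, SE 0.34). Slc8b1, which encodes the mitochondrial exchanger NCLX, averaged 11.8 ± 1.92 CPM in sgLkb1 tumours and 11.3 ± 2.75 CPM in sgNeo tumours (SD, n = 3 each, edgeR adjusted p = 0.89).

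Iron, manganese and magnesium. The 3 iron and manganese genes of SLC11 and SLC40 were all tested with edgeR and 0 passed, and each had a negative log2 fold change. Slc39a8, whose product also carries manganese, fell and is described above with the SLC39 genes. Slc40a1 encodes ferroportin. It had 9.57, 36.5 and 10.1 CPM in sgLkb1 tumours, against 59.2, 59.8 and 52.0 CPM in sgNeo tumours. No sgLkb1 library reached the level of an sgNeo library, with replicate 2 far above the other sgLkb1 libraries. The log2 fold change was -1.61 with an SE of 0.49 (edgeR adjusted p = 0.061), and without that library it was -2.51 with an adjusted p of 0.00089. Slc11a2 encodes DMT1, which brings in ferrous iron. It had 34.2, 32.1 and 30.7 CPM in sgLkb1 tumours, against 40.8, 43.2 and 46.2 CPM in sgNeo tumours (edgeR adjusted p = 0.080, log2 fold change -0.42, SE 0.14). Its exons overlap those of Gm5475 on the opposite strand over 402 bases. Slc11a1 encodes NRAMP1 of macrophages and stayed below 8 CPM in every library (edgeR adjusted p = 0.18). Of the 3 magnesium carriers of SLC41, 0 passed in edgeR. Slc41a1, with the highest mean CPM of them, had 33.2, 25.4 and 34.3 CPM in sgLkb1 tumours, against 41.3, 42.8 and 61.2 CPM in sgNeo tumours (edgeR adjusted p = 0.073, log2 fold change -0.65, SE 0.21). The unadjusted edgeR p was under 0.05 for 2 of the 3 SLC11 and SLC40 genes (Slc11a2 and Slc40a1) and for 1 magnesium gene (Slc41a1). Of these 3, DESeq2 called Slc40a1.

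Counts per gene depend on its length, so levels were also set side by side as CPM per kilobase of exon. On that scale Slc34a2 ranked first of the 88 in both genotypes, with a mean of 213 in sgLkb1 tumours and 1182 in sgNeo tumours. Slc39a4 ranked next in both, with 141 in sgLkb1 tumours and 102 in sgNeo tumours. Slc39a8 stood at rank 21 in sgLkb1 tumours (6.44 CPM per kilobase) and at rank 7 in sgNeo tumours (49.9). Slc26a4 stood at rank 13 in sgLkb1 tumours (11.3) and at rank 6 in sgNeo tumours (53.6), and Slc26a9 at rank 9 (15.7) in sgLkb1 tumours and rank 5 (55.1) in sgNeo tumours. Slc4a11 ran the other way, at rank 7 (19.5) in sgLkb1 tumours and rank 23 (6.82) in sgNeo tumours, though its test was not passed. In the plot of these levels Slc34a2 lies close to Slc39a4 in sgLkb1 tumours and far above every other carrier in sgNeo tumours.

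**Figure D3:**
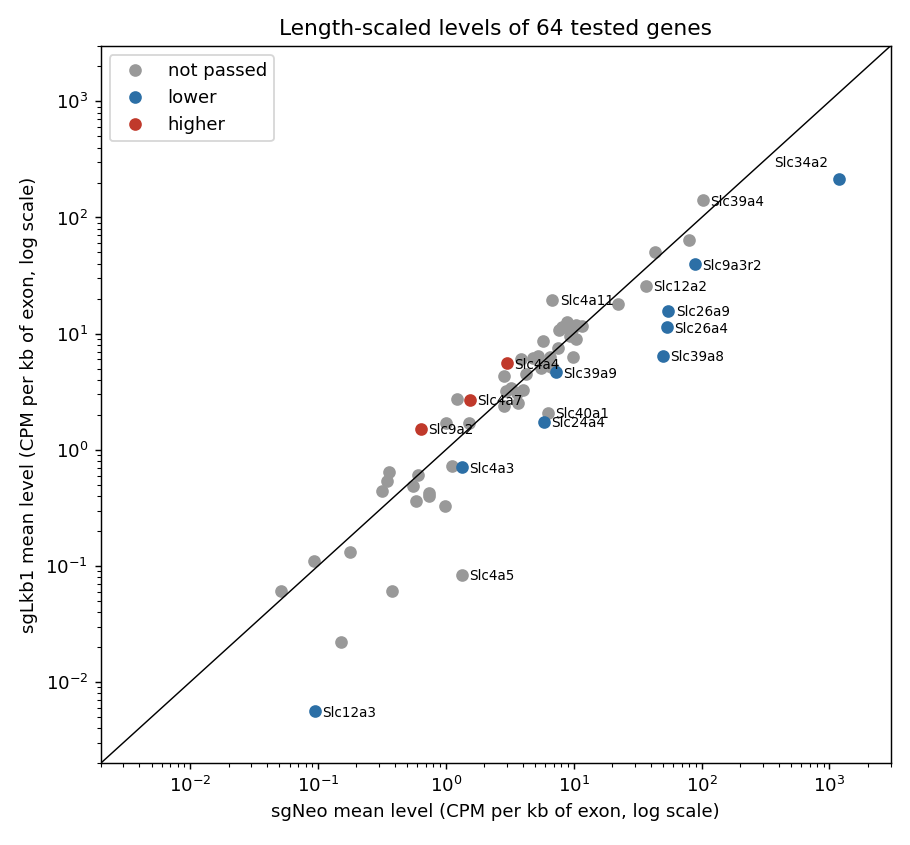
Mean CPM per kilobase of exon in sgLkb1 tumours (vertical, log axis) and in sgNeo tumours (horizontal, log axis) for the 64 tested genes, coloured by the edgeR call, with a line where both are equal. Slc34a2 stands furthest out at 213 in sgLkb1 tumours and 1182 in sgNeo tumours, and Slc39a4 lies just above the line at 141 in sgLkb1 tumours and 102 in sgNeo tumours.

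Most genes of the set stayed short of the threshold. Of the 52 tested genes that did not pass, 26 had a positive and 26 a negative log2 fold change, and 31 lay within 0.5 of 0. They include 16 of the 28 genes with no overlap between genotypes. The 24 untested genes had a mean of at most 0.495 CPM in either genotype, and 4 of them (Slc8a2, Slc26a5, Slc30a3 and Slc39a12) had no count in any library. A count of 0 allows up to the 3-count levels given above. A mean of at least 1 CPM in either genotype was reached by 61 of the 88 genes and in both genotypes by 58.

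Markers of alveolar type 2 cells were set beside the genes of the set that were picked for having fallen. A shared direction is no independent result, since these alveolar type 2 markers were listed with earlier results known. Of 10 such markers, 10 fell, with a median log2 fold change of -2.38, and their summed CPM ran from 12281 to 20257 in sgLkb1 libraries and from 123284 to 145800 in sgNeo libraries. Sftpc, the surfactant protein C gene, had a log2 fold change of -3.13 (edgeR adjusted p = 0.00088). All 10 markers were lowest in sgLkb1 replicate 2, as were 5 of the 9 genes of the set that fell: Slc34a2, Slc39a8, Slc26a9, Slc26a4 and Slc24a4. The order did not match throughout. Among sgLkb1 libraries the highest was replicate 3 for 6 of the 10 markers and replicate 1 for 5 of the 9 genes. Among sgNeo libraries the lowest was replicate 2 for 7 of the 10 markers and replicate 3 for 7 of the 9 genes. These orders are a description. The part of alveolar type 2 cells or of their state in these falls was not tested. Of 6 epithelial markers 2 rose, Epcam among them (log2 fold change 1.10, edgeR adjusted p = 0.011), and of 7 tested gastric and gut markers 4 rose.

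**Figure D4:**
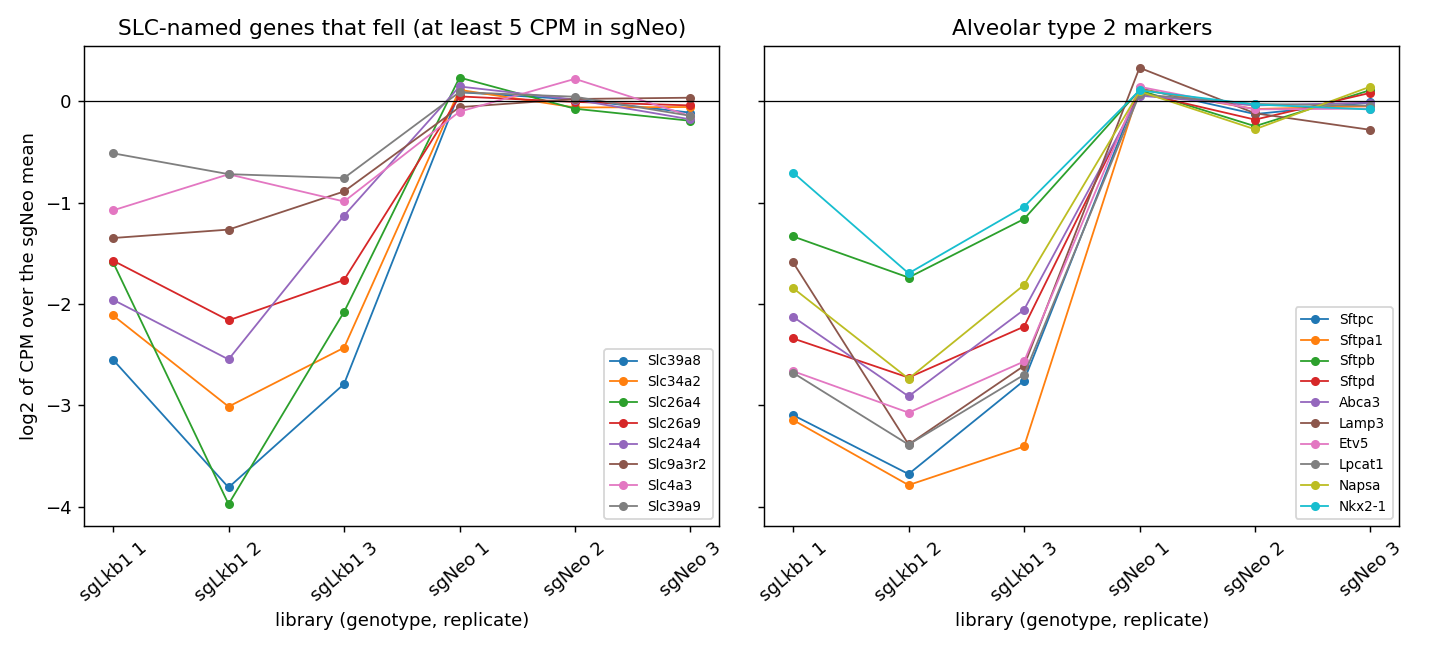
Log2 of the CPM in each library over the sgNeo mean, for the genes that fell and had at least 5 CPM in sgNeo tumours (left panel) and for the 10 alveolar type 2 markers (right panel), with sgLkb1 libraries left of sgNeo libraries. Every sgLkb1 point lies below the sgNeo points of its gene, and sgLkb1 replicate 2 is the lowest for each of the 10 markers and for Slc34a2.

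Markers of other cells that the sort could have let through were measured as well. Of 7 tested leukocyte markers 1 fell, and their summed CPM ran from 13.5 to 27.1 in sgLkb1 libraries and from 23.3 to 31.2 in sgNeo libraries. Of 5 tested erythroid markers 0 passed in edgeR, 0 had an unadjusted p under 0.05 and DESeq2 called 0. Of the macrophage sum most was Chil3, which had 1574, 199.6 and 401.6 CPM in sgLkb1 libraries, against 524.7, 194.2 and 320.5 CPM in sgNeo libraries. Of 10 macrophage markers 3 rose, with sums from 255 to 1671 CPM in sgLkb1 libraries and from 225 to 563 CPM in sgNeo libraries. Of 8 fibroblast markers 4 rose, with sums of 178, 259 and 1393 CPM in sgLkb1 libraries, against 117, 44.6 and 37.2 CPM in sgNeo libraries. Endothelial markers rose in 3 of 8 and mesothelial markers in 2 of 5 tested. Of 6 airway markers 1 fell. The part of these cells in the carriers' changes was not tested.

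The genes that work with these carriers were described from lists of partners. Exons of Car9, Mt2, Cp, Fxyd3, Nipal2, Clcn2 and Cftr overlap those of a gene on the opposite strand, so their values are uncertain to that extent. Of 85 such genes tested, 16 rose and 8 fell, and the 24 calls were 15 and 14 without sgNeo replicate 1 and 2. Over all 15978 genes tested, 15.7% were called, 7.05% higher and 8.6% lower. These shares are the background for the counts of each list below and of the markers above. No test was made on any list. Leaving out single libraries ended the calls of Car13, Mt2, Cp, Hfe, Steap1, Hmox1, Sgk1, Fxyd6, Nipal2 and Clcn2 in 2 to 5 of 6 fits, each of them without sgNeo replicate 2, and Fxyd6 was also lost under RLE scaling, with the 10 most abundant genes left out and with the replicate block. Cftr, which did not pass, passed without sgLkb1 replicate 1. In the carbonic anhydrase list, whose enzymes make and use the bicarbonate that the SLC4 and SLC26 proteins move, 4 of 12 tested rose and 1 fell. Car9 encodes an enzyme on the outer cell surface. It had 89.7, 60.7 and 40.8 CPM in sgLkb1 tumours, against 2.33, 3.56 and 11.2 CPM in sgNeo tumours (edgeR adjusted p = 0.0067, log2 fold change 3.48, SE 0.59), and the value without sgNeo replicate 3 was 4.43. Car12, also on the cell surface, had 4.18, 4.96 and 2.87 CPM in sgLkb1 tumours, against 0, 0.202 and 0.199 CPM in sgNeo tumours (edgeR adjusted p = 0.0064). Car5b of mitochondria and Car13 of the cytosol also rose, by log2 fold changes of 2.15 and 1.20. Car8, which encodes a protein of this family without the enzyme activity, fell to 46.4, 29.3 and 53.1 CPM in sgLkb1 tumours, against 511.6, 436.4 and 404.8 CPM in sgNeo tumours (edgeR adjusted p = 0.00043, log2 fold change -3.39, SE 0.25).

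WNK kinases and the kinases SPAK and OSR1 set the activity of SLC12 carriers, and in the list of these kinases with their scaffold and ubiquitin ligase partners 1 of 8 tested genes fell. Wnk4, the kinase best known for control of NCC, had 8.22, 7.92 and 7.69 CPM in sgLkb1 tumours, against 24.4, 24.6 and 25.9 CPM in sgNeo tumours (edgeR adjusted p = 0.00096, log2 fold change -1.65, SE 0.17). Its exons overlap those of an antisense gene. A list of metallothioneins, which bind zinc in the cytosol, and of the regulators Mtf1 and Mtf2 had 4 tested genes, of which 1 rose. Mt2, a metallothionein gene, had 144, 87.3 and 95.4 CPM in sgLkb1 tumours, against 62.4, 50.5 and 36.5 CPM in sgNeo tumours (edgeR adjusted p = 0.022, log2 fold change 1.13, SE 0.26), while Mt1, the other metallothionein gene tested, had a log2 fold change of 0.69 and missed the threshold (edgeR adjusted p = 0.058).

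Of 21 tested iron genes, 4 rose and 3 fell. Ltf, which encodes the iron-binding protein lactoferrin, had 427.0, 1603.6 and 932.3 CPM in sgLkb1 tumours, against 11.0, 7.86 and 21.4 CPM in sgNeo tumours (edgeR adjusted p = 0.00093, log2 fold change 6.20, SE 0.62). Lcn2, whose product binds iron carriers of bacteria, fell by 2.16 on the log2 scale (edgeR adjusted p = 0.00088). Ncoa4, the receptor that brings ferritin to lysosomes, and Steap1, of a family of metal reductases, had log2 fold changes of 1.32 and 1.56. Cp encodes ceruloplasmin, which oxidises the iron that ferroportin exports. It had a log2 fold change of 2.41 (edgeR adjusted p = 0.030), which was 1.40 without sgLkb1 replicate 2. Hfe, a regulator of iron uptake, and Hmox1, which frees iron from haem, fell by 1.22 and 0.82 on the log2 scale. The iron genes that passed thus moved in both directions.

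Of 4 tested phosphate genes, Enpp1, which makes pyrophosphate, rose (log2 fold change 2.34, edgeR adjusted p = 0.00066) and Alpl, which splits it, fell (log2 fold change -3.10, edgeR adjusted p = 0.0076). The Alpl value was -3.98 without sgLkb1 replicate 3. Among 7 tested cofactors of the sodium-proton exchangers, the kinase gene Sgk1 rose (log2 fold change 1.85, edgeR adjusted p = 0.015). Among 10 tested genes of the sodium pump, the regulators Fxyd3 and Fxyd5 rose and Fxyd6 fell, with log2 fold changes of 2.42, 1.27 and -1.10. Of 14 tested magnesium genes, Cnnm4 and Nipal2 rose (1.84 and 0.65) and Trpm6, a magnesium channel gene, fell (-1.59). In the list of apical chloride channels, 1 of 5 tested rose, which was Clcn2 (log2 fold change 1.08, edgeR adjusted p = 0.022). Cftr, the chloride channel mutated in cystic fibrosis, had 42.2, 21.1 and 14.2 CPM in sgLkb1 tumours, against 36.5, 31.4 and 27.0 CPM in sgNeo tumours (edgeR adjusted p = 0.64, log2 fold change -0.29, SE 0.36).

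**Figure D5:**
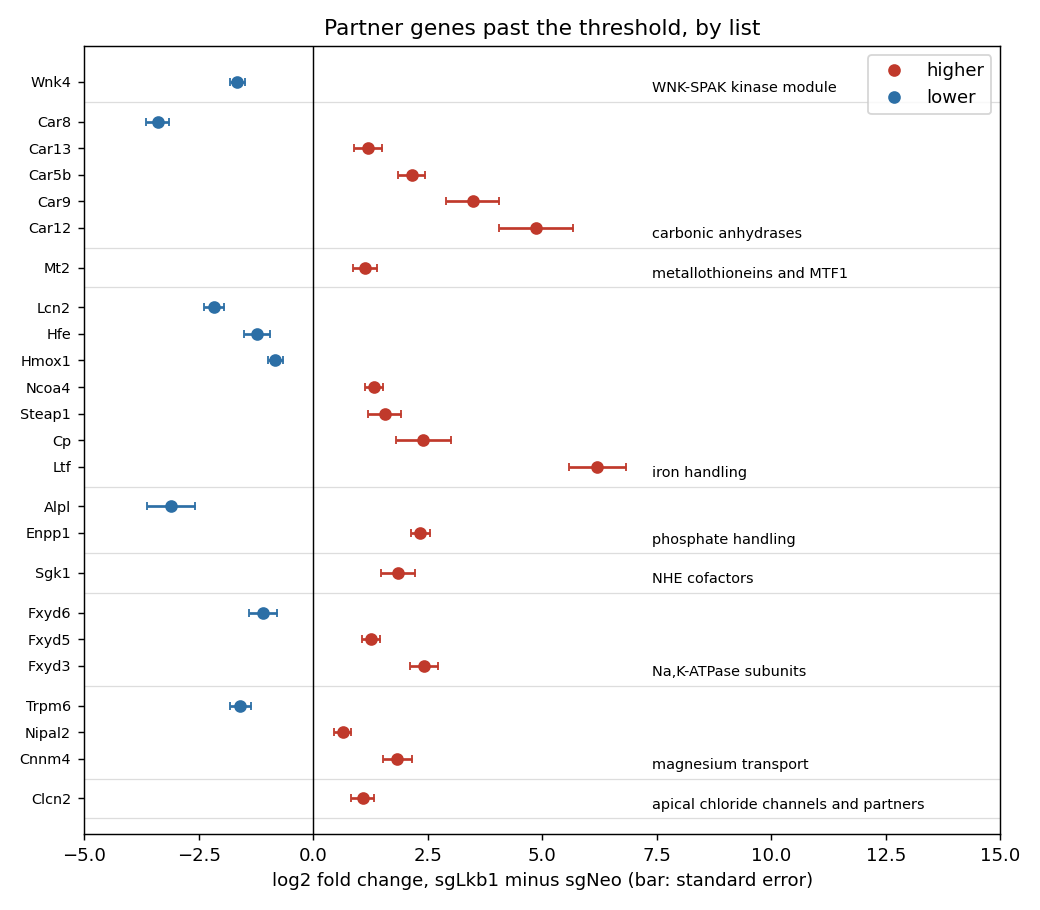
Log2 fold change (sgLkb1 minus sgNeo) from edgeR with its standard error for the 24 partner genes past the threshold, by list, with genes that rose in red and genes that fell in blue. Ltf has the highest value at 6.20 and Car8 the lowest at -3.39.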

How the data were processed

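Expected counts per gene for 6 libraries, 3 per genotype, are what the authors deposited. FastQC, STAR, RSEM, DESeq2 and build GRCm38 are named in the submitters' processing notes, with no versions. The library kit was Nextera XT, per the labels' protocols. Neither the strand setting nor the annotation release is given in the sources used here, so reads of genes that overlap on opposite strands cannot be told apart. RSEM divides reads shared by near-identical genes.

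Values were rounded to whole numbers, filtered with filterByExpr and scaled by the TMM method (edgeR 4.0.16 under R 4.3.3). CPM refers to the scaled library sizes. The comparison used the quasi-likelihood test of edgeR (glmQLFit, then glmQLFTest, two-sided) with a term for genotype alone, over all 15978 genes kept and with Benjamini-Hochberg adjustment at 0.05. Every adjusted p is from this test unless DESeq2 (1.42.0) is named. Log2 fold changes are sgLkb1 minus sgNeo, and the SE is the absolute log2 fold change over the square root of F. Gene positions and exon lengths are those of GENCODE M21 on GRCm38, which matched all 88 gene IDs. Precision is limited by depth: floors of 3 counts cover counting error only.

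The members, partner lists and marker lists were chosen with earlier results of these data known, so they give no independent support. Members were named if they passed the threshold, had the highest mean CPM of their SLC family, or differed by at least 1 on the log2 scale with a mean of at least 1 CPM. Slc20a1, Slc26a2, Slc4a10, Slc39a6, Slc39a10, Slc39a14, the untested genes and the markers named in the text were picked outside that rule. Partner genes were named if they passed the threshold; Cftr and Mt1 were named besides. The code was checked on simulated data. The alternatives were another scaling, other filters, DESeq2, a replicate block and leaving out each library. Replicates differed by more than counting noise, and no library was a copy of another.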

Additional observations from a re-analysis of the deposited data

How the results depend on the processing

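The genes past the threshold were 11 carriers and the scaffold gene Slc9a3r2. All 12 stayed with RLE scaling, with the 10 most abundant genes left out of the whole fit and in DESeq2. Of them, 11 stayed without the filter on low counts (Slc4a3 lost) and with at least 1 CPM in 3 libraries (Slc12a3 not tested). The members called numbered 13, 12, 18, 18 and 11 under RLE, without the 10 genes, in DESeq2, without the filter and with the 1 CPM minimum. Those that rose numbered 7 without the filter and 7 in DESeq2, with 11 lower in both, against 3 and 9; the cause was not tested. Leaving out 1 library gave 5 to 15 members, 0 to 6 higher and 5 to 9 lower, 14 to 30 partner genes and 1129 to 2780 of all genes, against 2501, with fewer libraries in each fit; without sgLkb1 replicate 2 the last was 1529. All genes called numbered 3440 without the filter (55.7% of them higher, against 45.1%) and 3412 in DESeq2.

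Values near 0 changed sign. Slc30a5 was 0.018 under RLE, 0.024 without the filter and 0.019 in DESeq2, and ran from -0.15 to 0.082 with 1 library left out. Over the same fits Slc8b1 ran from -0.11 to 0.23, Slc20a2 from -0.15 to 0.14 and Wnk1 from -0.053 to 0.22. The Stk11 call was lost in 5 of 6 such fits, with an adjusted p of up to 0.076.

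Samples with the same replicate number had correlations of 0.135, -0.0214 and 0.115 in their deviations from the genotype means. Replicates 1 and 3 of sgLkb1 correlated best with the sgNeo library of their own number. Replicate 2 of sgLkb1 correlated best with sgNeo replicate 3 (0.0885). Since the match was not complete, the numbers were not taken as pairs in the main fit. With the replicate block, 17 members passed (4 higher, 13 lower), 28 partner genes and 2880 genes in all; Slc4a7 lost its call and Slc12a2, Slc30a1, Slc40a1, Slc41a1, Slc4a5 and Slc4a11 gained one.

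Depth limits the low carriers: a count of 3 is 0.0734 to 0.0861 CPM in sgLkb1 libraries and 0.119 to 0.121 CPM in sgNeo libraries, so the size of the Slc12a3 fall rests on few reads. A missed threshold does not show equal levels.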

Other observations

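Some genes of the set lie close to another gene of the set in the genome, which no comparison above used. Whether other genes lie in these gaps was not examined. On chromosome 1, Slc26a9 and Slc41a1 are separated by 55988 bases on GRCm38. Slc26a9 fell and Slc41a1, with 31.0 ± 4.84 CPM in sgLkb1 tumours and 48.4 ± 11.1 CPM in sgNeo tumours, did not pass. On the same chromosome Slc9a4 and Slc9a2 are separated by 49848 bases. Slc9a2 rose, while Slc9a4 had 35.5, 11.9 and 11.2 CPM in sgLkb1 tumours, against 14.8, 14.5 and 9.48 CPM in sgNeo tumours, and did not pass (edgeR adjusted p = 0.42). Exons of Slc9a4 overlap those of Gm35801 and Gm37435 on the opposite strand over 971 bases. On chromosome 12, Slc26a4 lies 45909 bases from Slc26a3, which had too few counts to be tested. On chromosome 3, the proton exchanger genes Slc9b2 and Slc9b1 lie 2641 bases apart, and Slc9b2 stayed at or below 1.08 CPM in every library. Slc9a4, Slc26a3 and the SLC9B genes were chosen after their values were seen, for their position.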
